A study of Mus musculus with 6 samples.

Results

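The 5 genes of the Ikaros family, Ikzf1, Ikzf2, Ikzf3, Ikzf4 and Ikzf5, were examined for open chromatin in regulatory T cells (Tregs). Every ATAC-seq peak that overlapped the RefSeq span of a gene, or 10 kb on either side, was taken, and peaks of the 6 lists that shared at least 1 bp were merged into regions. This gave 75 of the 64817 regions of the series. ATAC-seq marks open DNA by the insertion of sequencing adapters by the transposase Tn5. Sorting took cells labelled CD4+CD25+GITR+Foxp3+ from lymph nodes that drain the tumour, on day 14 after 300000 B16.F10 melanoma cells had been injected under the skin. Libraries labelled WT came from C57BL6 mice (replicates 2, 4 and 6), and libraries labelled KO from il33-/- mice on a C57BL6 background (replicates 1, 2 and 4). All 6 libraries came from tumour-bearing mice. The labels give neither age nor sex, and do not say whether a library is 1 mouse or a pool, so the spread that enters each p-value is that between libraries and may be technical.

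Ikaros family proteins are zinc finger transcription factors. Fingers near the start of the protein bind DNA, and fingers at its end pair family members with one another. They recruit the NuRD remodelling and deacetylase complex, as well as Sin3 and CtBP corepressors. Ikzf1 encodes Ikaros, which is needed for lymphocyte development, and Ikzf3 encodes Aiolos, known from B cells and from repression of Il2 in T cells. Helios, the product of Ikzf2, is present in most Tregs that arise in the thymus, and Eos, the product of Ikzf4, is a partner of Foxp3 in gene silencing. Pegasus, the product of Ikzf5, is the most divergent member and is widely expressed.

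The KO libraries were shallower than every WT library, with 4.72 to 10.3 M tags kept against 12.9 to 15.2 M, and their lists were shorter, with 37266 to 42738 peaks against 52836 to 55939. Chromosome Y held 8 or 9 peaks in each WT list and 0 in each KO list. Genotype therefore cannot be told apart from depth in any comparison here, nor from the sex of the mice, which the labels do not give, if the chromosome Y peaks reflect it. Peaks lay at all 8 Treg and T cell markers examined, Foxp3, Il2ra and Cd3e among them (52 to 53 peaks in WT and 40 to 45 in KO libraries). They also lay at 7 of 8 B cell markers (26 to 32 peaks in WT and 15 to 21 in KO libraries, with Ms4a1 at 0), 4 of 5 CD8 T and NK markers (8 in each WT and 4 to 6 in KO, Ncr1 at 0), 5 of 7 myeloid markers (17 in each WT and 12 to 14 in KO, Lyz2 and Csf1r at 0) and 4 of 7 melanoma markers (9 to 12 and 8 to 11, with Tyr, Tyrp1 and Dct at 0). Relative to list length, Treg and T cell marker peaks were 0.0947% to 0.0984% of a WT list and 0.0959% to 0.107% of a KO list, and B cell marker peaks 0.0488% to 0.0606% and 0.0403% to 0.0495%. The part of other cells in the results on Ikzf1 and Ikzf3, which B cells also use, was not tested.

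Promoter sequences were taken for 2 of the members. The RefSeq promoter table (GRCm38.p6, the assembly of mm10) held 1 entry for Ikzf5 and 2 for Ikzf1, each running from 250 bases before to 50 bases after the start site. They are shown because an accessible region lay over each. Capitals mark matches to the GC box GGGCGG on either strand, the motif bound by Sp1 family factors.
Ikzf5 promoter, chr7:131410429-131410728, minus strand: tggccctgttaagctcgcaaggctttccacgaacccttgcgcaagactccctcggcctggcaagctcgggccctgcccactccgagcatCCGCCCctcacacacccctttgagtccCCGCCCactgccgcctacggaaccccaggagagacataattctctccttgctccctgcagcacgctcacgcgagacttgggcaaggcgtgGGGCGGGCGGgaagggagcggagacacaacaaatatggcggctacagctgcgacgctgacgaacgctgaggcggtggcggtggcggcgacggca
Ikzf1 first promoter, chr11:11685675-11685974, plus strand: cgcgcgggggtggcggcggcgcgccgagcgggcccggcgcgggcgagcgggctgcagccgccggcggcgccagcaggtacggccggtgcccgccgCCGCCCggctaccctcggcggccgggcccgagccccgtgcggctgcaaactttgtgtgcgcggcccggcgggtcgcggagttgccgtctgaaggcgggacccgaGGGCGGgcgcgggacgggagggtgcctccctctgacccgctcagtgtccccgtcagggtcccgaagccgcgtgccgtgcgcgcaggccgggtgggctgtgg
Ikzf1 second promoter, chr11:11689927-11690226, plus strand: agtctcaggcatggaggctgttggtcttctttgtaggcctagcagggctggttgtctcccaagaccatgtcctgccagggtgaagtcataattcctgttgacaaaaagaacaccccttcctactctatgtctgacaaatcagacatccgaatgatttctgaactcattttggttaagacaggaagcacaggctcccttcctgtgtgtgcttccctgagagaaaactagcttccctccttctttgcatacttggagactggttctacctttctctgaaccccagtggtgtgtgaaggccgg

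The Ikzf5 promoter held 4 GC boxes, of which a pair overlapped, the first Ikzf1 promoter held 2, and the second held 0. A GC box was present in 46.2% of the 21262 promoter entries of protein-coding genes. The first Ikzf1 promoter was 81.3% G or C, more than 99.2% of those entries, while the second was 49.0% G or C and the Ikzf5 promoter 65.7%. None of the 3 held the Ikaros core TGGGAA (in 24.5% of entries), the ETS motif CCGGAA (18.7%), the Runx motif TGTGGT (15.0%), the AP-1 motif TGANTCA (6.99%) or the forkhead motif TGTTTAC (3.01%), each searched on both strands. Among all these entries, 48.3% overlapped a region called in all 6 libraries.

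At the Ikzf5 promoter the accessible region (chr7:131409714-131410965) was the only region of this gene, and it was called in all 6 libraries. It also covered the start site of Acadsb, a dehydrogenase gene that runs the other way, 123 bp from that of Ikzf5. Heights here are the deposited pileup at the summit divided by the median pileup of the same list, so that 1 is a typical peak of that library. The height was 3.89, 4.26 and 4.24 in WT replicates 2, 4 and 6, and 4.10, 3.38 and 3.09 in KO replicates 1, 2 and 4. KO replicate 1 lay within the WT range and the other KO libraries below it. Ranked by significance within its own list, with 100 the strongest, the peak stood at percentile 98.8 on average in WT and 97.3 in KO.

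The first Ikzf1 promoter lay in region 3 of that gene (regions are numbered by position along the chromosome; chr11:11685581-11686435), which also held the start site of the non-coding RNA gene Gm11999, 290 bp away on the other strand. Its height was 1.5, 2.07 and 1.59 in the WT libraries and 1.25 and 1.44 in KO replicates 1 and 2, while KO replicate 4, the deepest KO library, had no peak there. The second Ikzf1 promoter overlapped region 4 (chr11:11689950-11690920) by 277 of its 300 bases. This region was called in all 6 libraries and was the taller, with heights of 2.14, 2.48 and 2.31 in WT and 1.75, 1.69 and 1.87 in KO. On this scale every KO library was below every WT library at region 4. The same held for the typical region of the genome: over all 29419 regions called in all 6 libraries the median difference on the log2 scale was -0.32. The main test of heights between genotypes was therefore run after division by each library's median over those 29419 regions, described further on. Where heights on the list scale are said to overlap or to lie below WT, here and at the other genes, they carry this shift.

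**Figure D1:**
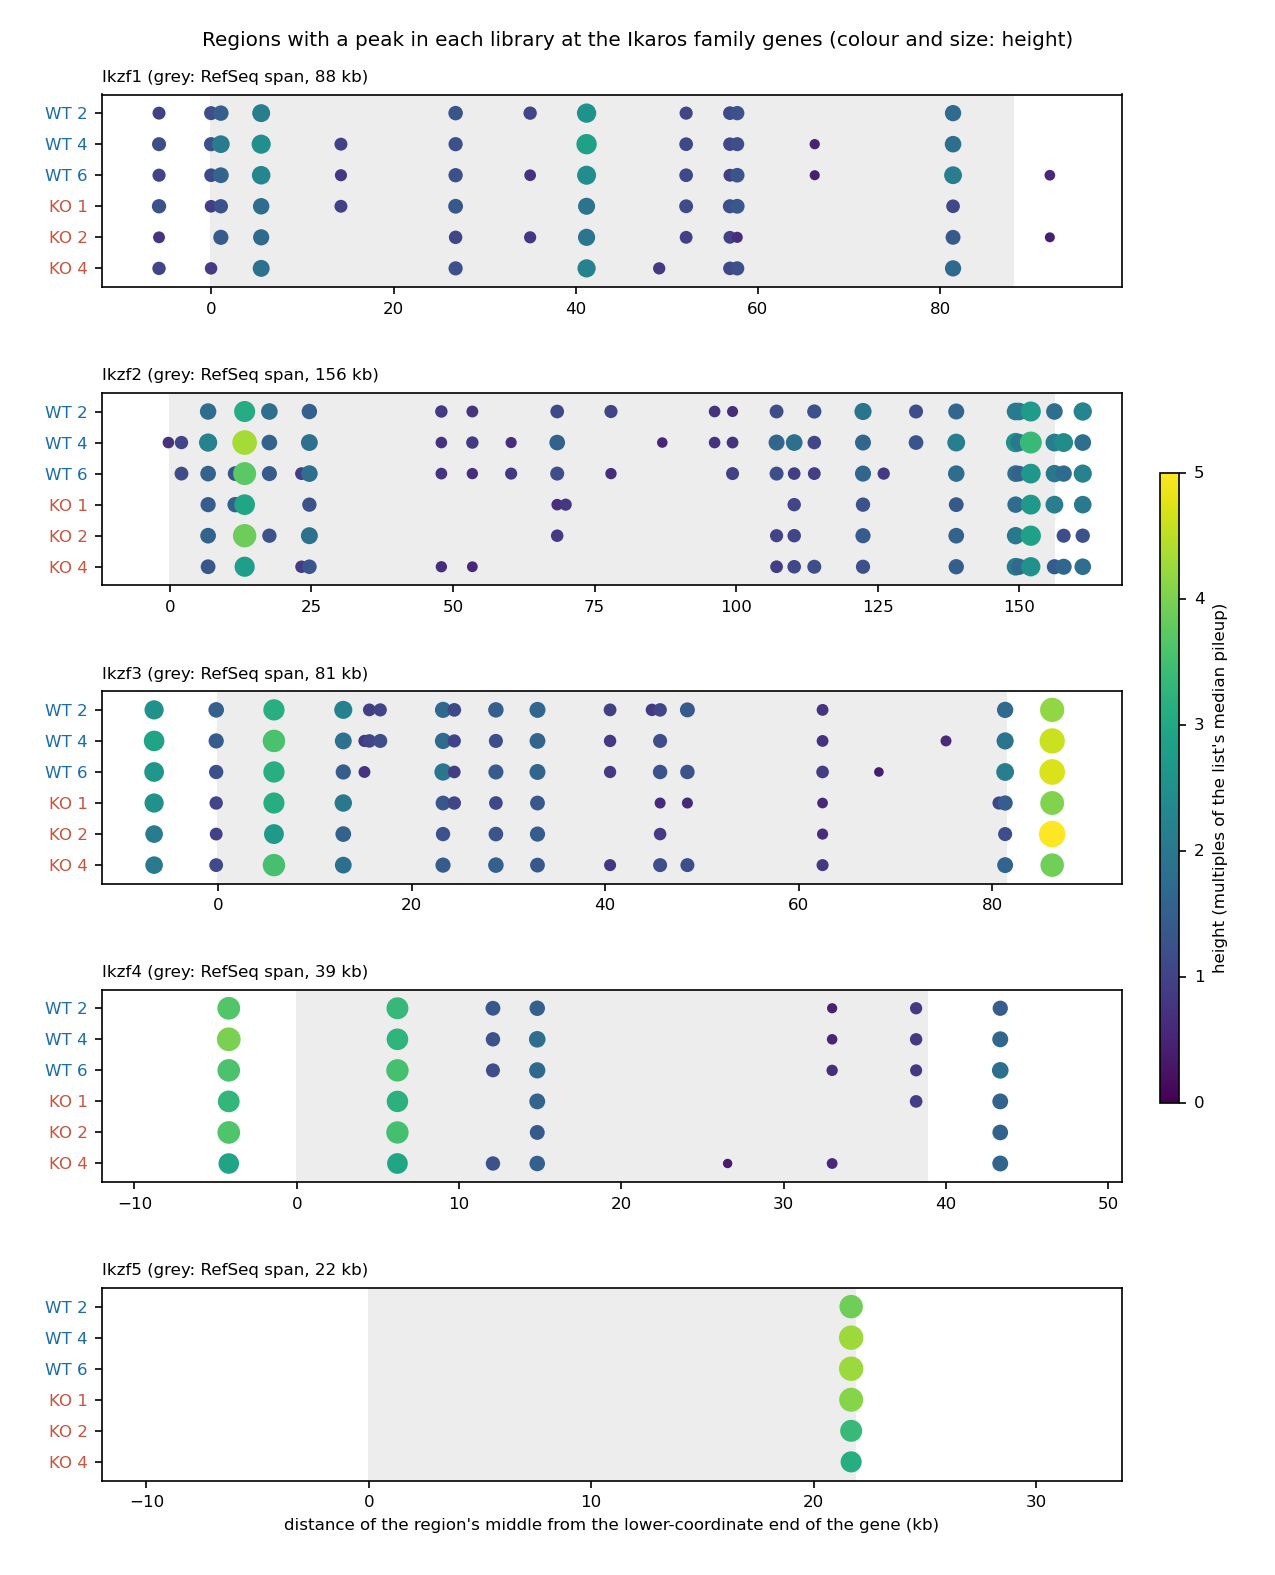
Regions with a peak in each of the 6 libraries (rows; WT 2, 4 and 6, KO 1, 2 and 4) at the 5 genes, by distance in kb from the end of the gene with the lower coordinate. Colour and size give the height in multiples of the list's median pileup, and grey marks the RefSeq span. Ikzf2 shows 30 regions and Ikzf5 shows 1, and the tall regions recur in all rows.

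The genes differed in how much of their window, the span with its flanks, was accessible. In WT libraries, peaks covered 106 ± 3.02 bp per kb of window at Ikzf3, 85.6 ± 1.28 at Ikzf4, 63.4 ± 5.72 at Ikzf1, 60.7 ± 5.58 at Ikzf2 and 26.6 ± 3 at Ikzf5 (mean ± SD, n = 3). Ikzf1 and Ikzf2 overlapped between libraries (58.1 to 69.5 and 54.4 to 64.9), and the other neighbours in this order did not. The KO order was the same, with 73.5 ± 6.003, 65.1 ± 12.8, 45.4 ± 6.12, 29.7 ± 6.40 and 19.9 ± 2.29 bp per kb (SD, n = 3), where only Ikzf3 and Ikzf4 overlapped (67.8 to 79.8 and 56.5 to 79.8). Part of the coverage at Ikzf3 and Ikzf4 belonged to other genes: the windows took in the start sites of Zpbp2, Rps26, Suox and Gm26876 and part of Mien1. The merged regions there were wide, with 1807 bp at Zpbp2 and 1629 bp at Mien1 beside Ikzf3. At Ikzf4 they measured 1199 bp at Rps26, 1555 bp at Suox and 772 bp at Gm26876. The order of the genes without these regions was not computed.

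Fewer peaks were called at the family in KO. The 5 genes together held 56, 62 and 63 peaks in WT and 47, 42 and 48 in KO libraries, means of 60.3 ± 3.79 and 45.7 ± 3.21 (SD, n = 3 each). The groups did not overlap (difference -14.7, two-sided exact permutation p = 0.1, the smallest this design of 3 against 3 allows). Covered length was also lower, with 34455 ± 1353 bp in WT and 22249 ± 2941 bp in KO (exact permutation p = 0.1). Relative to list length the groups overlapped: the family had 11.2 ± 0.708 peaks per 10000 in WT and 11.2 ± 0.0989 in KO (exact permutation p = 1). When every list was reduced to the 37266 peaks with the highest significance, which is all of the KO replicate 2 list, the family held 40 ± 2.65 peaks in WT and 42 ± 1 in KO (exact permutation p = 0.5). Covered length was still lower in KO in these lists, by a smaller margin (difference -6380 bp, exact permutation p = 0.1). How many of all protein-coding genes had a lower covered length in KO in these lists was not computed.

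Ikzf2 carried the largest difference in peak number among the 5 genes. Its window (gene span chr1:69531207-69687351) held 20, 25 and 25 peaks in WT and 13, 14 and 17 in KO libraries. Ikzf3 (chr11:98464610-98546031) held 17, 17 and 16 in WT and 15, 11 and 14 in KO. In both genes every KO library was below every WT library. Ikzf1 (chr11:11684962-11772930) held 11, 12 and 14 against 12, 11 and 9, and Ikzf4 (chr10:128630839-128669671) 7 in each WT library against 6, 5 and 7, so that these groups overlapped. Ikzf5 (chr7:131388649-131410518) had 1 peak in each library. The KO mean was 0.629 of the WT mean at Ikzf2, 0.8 at Ikzf3, 0.857 at Ikzf4 and 0.865 at Ikzf1. Among the 3116 protein-coding genes with at least 5 peaks on average in WT the median of this ratio was 0.769, and 17.2% of them had a ratio no higher than that of Ikzf2. Such separation with KO lower was seen at 15.5% of the 16242 protein-coding genes with a peak, and at 39.3% of those 3116 genes. Exact permutation p-values were 0.1 for Ikzf2 and Ikzf3, 0.5 for Ikzf1, 0.4 for Ikzf4 and 1 for Ikzf5, and 0.188 or more after Benjamini-Hochberg adjustment over 15 tests (5 genes by peak number, covered length and height). Covered length was lower in every KO library at all 5 genes, as at 65.4% of protein-coding genes with a peak, and higher at none (0.0431%).

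**Figure D2:**
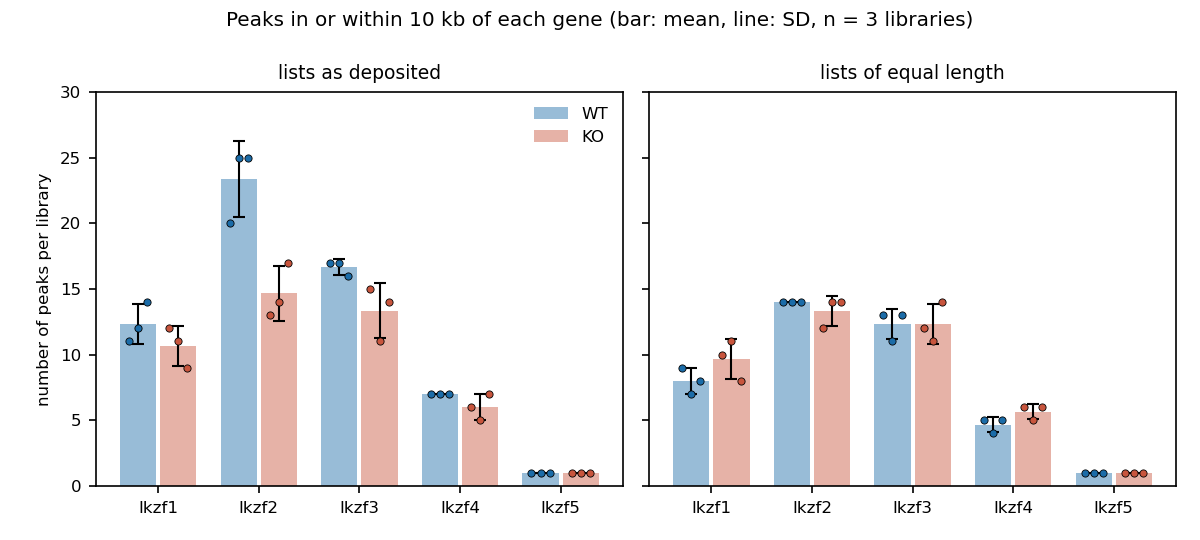
Number of peaks at each gene per library (points), with the mean (bar) and SD (line) of 3 WT and 3 KO libraries, in the lists as deposited (left) and cut to the same length (right). The means of Ikzf2 are 23.3 (WT) and 14.7 (KO) peaks on the left and 14 and 13.3 on the right.

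In lists of equal length Ikzf2 had 14 peaks in each WT library and 12, 14 and 14 in KO, and Ikzf3 had 12.3 ± 1.15 in WT and 12.3 ± 1.53 in KO (SD, n = 3). Ikzf1 then had more peaks in KO (9.67 ± 1.53 against 8 ± 1), as did Ikzf4 (5.67 ± 0.577 against 4.67 ± 0.577). In both genes the libraries overlapped (exact permutation p = 0.3 each). A library can have more than 1 peak within a region, as KO libraries had at Ikzf4. More peaks therefore need not mean more accessible regions.

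Most of the taller regions were shared by both genotypes. Of the 75 regions, 31 (41.3%) were called in all 6 libraries, against 45.4% of all regions. Per gene these were 7 of 15 at Ikzf1, 8 of 30 at Ikzf2, 11 of 21 at Ikzf3, 4 of 8 at Ikzf4 and 1 of 1 at Ikzf5. All 3 WT libraries had 48 of the regions, and every KO library had 31 of those 48 (64.6%, against 67.6% across the genome). At Ikzf2 the share was 8 of 17 and at Ikzf3 11 of 13. A peak in WT and in no KO library was seen at 16 regions (21.3%, against 25.6% of all regions), of which 9 lay at Ikzf2, 6 at Ikzf3 and 1 at Ikzf1. The reverse, a peak in KO and in no WT library, was seen at 4 regions (5.33%, against 3.17%), each of them in 1 library.

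One region was called in all 3 WT and in no KO library, as were 4.66% of all regions, and none in the opposite pattern (0.0185%). It was region 17 of Ikzf2 (chr1:69630300-69630844), inside the gene, with heights of 0.61, 0.74 and 0.97 in WT. It was thus below the typical peak of each WT list, at percentile 18.1 on average. In lists of equal length no region of the family had this pattern. Without KO replicate 4 the number rose to 8, and without any other single library it was 2 to 5, since the pattern is then easier to meet. The share of all regions with this pattern was not counted under these settings.

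The regions that KO libraries lacked were the weaker ones in WT. Among regions of all 3 WT libraries, the 31 that every KO library shared had a median WT percentile of 62.8 (30.4 to 98.8) and a median height of 1.84. The 16 called in 1 or 2 KO libraries had a median percentile of 30.5 (18.01 to 52.4) and a median height of 1.12. Regions called in 1 or 2 WT libraries, 23 in number, had a median percentile of 17.1. The 4 regions with a peak in KO alone had a median percentile of 11.6 in KO. The width followed, with a median of 772 bp for regions of all 6 libraries and 494 bp for the 16.

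**Figure D3:**
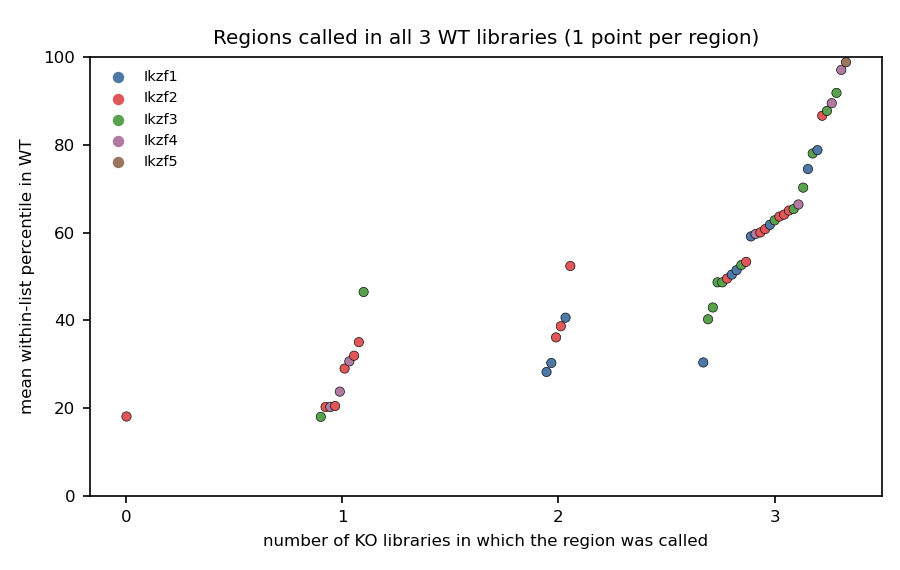
Mean within-list percentile in WT (vertical axis) of the 48 regions that every WT library had, by the number of KO libraries that called them (horizontal axis), 1 point per region coloured by gene. The 31 regions shared by every KO library reach from 30.4 to 98.8 and the 16 called in some from 18.01 to 52.4.

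At Ikzf2, the Helios gene, accessibility was spread over the whole length, with tall regions near both ends. The tallest was region 5 (chr1:69544066-69544733), 13.2 kb inside the lower-coordinate end, with heights of 3.07, 4.33 and 3.72 in WT and 2.95, 3.88 and 2.78 in KO. The groups overlapped there. Region 27 (chr1:69683026-69683464), 3.89 kb inside the other end, had 2.75, 3.37 and 2.66 in WT and 2.70, 2.81 and 2.52 in KO, which also overlapped. Over that end itself lay region 28 (chr1:69686905-69687930), with 1.79, 2.11 and 2.00 in WT, 2.1 and 1.43 in KO replicates 1 and 4, and no peak in KO replicate 2, the shallowest library. Region 25 (chr1:69680280-69680841) had 2.07, 2.56 and 1.79 against 1.75, 2.00 and 2.09.

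Between these ends, regions 9 to 17 of Ikzf2 (47.9 to 99.4 kb from the lower-coordinate end, a stretch picked out after its values were seen) numbered 9, and none had a peak in all 6 libraries. There the WT libraries had peaks in 6, 7 and 6 of these regions and the KO libraries in 2, 1 and 2. Averaged over the libraries with a peak, the 9 had heights of 0.52 to 1.08 and percentiles of 1.19 to 38.4. In WT alone, region 12 (chr1:69599431-69599773) was above the typical peak of each list. Its heights were 1.11, 1.56 and 1.17 in WT, at a mean percentile of 52.4, and 0.70 and 0.88 in KO replicates 1 and 2. Of the 8 regions before this stretch 3 were called in all 6 libraries, and of the 13 after it 5. The local background of Ikzf2 peaks had the highest mean of the 5 genes in both genotypes: the median background implied by height and fold enrichment was 2.80 ± 0.423 times the list median in WT and 2.53 ± 0.114 times in KO (SD, n = 3 each), against 2.37 ± 0.289 and 1.99 ± 0.124 at Ikzf3, the next in order. The WT libraries of these genes overlapped (2.53 to 3.29 at Ikzf2 and 2.06 to 2.63 at Ikzf3), and the KO libraries did not. Means at the other members were 2.00 to 2.09 in WT and 1.68 to 1.76 in KO. Region 27, for example, was 2.93 times the typical height in WT but only at percentile 65.0.

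At Ikzf3, the Aiolos gene, the tallest region of the window lay outside the gene, at the start site of Zpbp2, which encodes a sperm protein (region 21, chr11:98549913-98551719). Its height was 4.18, 4.59 and 4.72 in WT and 4.05, 5.06 and 3.91 in KO, with KO replicate 2 the highest of all. Inside the gene, region 3 (chr11:98469777-98470987) was the tallest, with 3.14, 3.56 and 3.14 in WT and 3.10, 2.69 and 3.52 in KO. Region 20 (chr11:98545688-98546220), over the higher-coordinate end, had 1.71, 1.93 and 2.1 in WT and 1.45, 1.19 and 1.61 in KO. Here every KO library was below every WT library on this scale, but not after centring (difference -0.09, 95% interval -0.40 to 0.21), and its percentile was 48.7 in WT and 19.7 in KO on average. A separate small peak 609 bp inside that end was called in KO replicate 1 alone (region 19, height 1). Region 2, over the lower-coordinate end (chr11:98463944-98464879), had 1.54, 1.44 and 1.24 against 1.05, 0.94 and 1.13. The region that overlapped Mien1 (region 1, chr11:98457181-98458809) was taller, with 2.50, 2.93 and 2.66 against 2.50, 2.06 and 2.04.

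At Ikzf4, the Eos gene, 8 regions were found, and the tallest was again at a neighbour, the start site of the ribosomal protein gene Rps26 (region 1, chr10:128626049-128627247), with 3.64, 4.00 and 3.59 in WT and 3.30, 3.62 and 2.91 in KO. Region 2 (chr10:128636537-128637540), 6.20 kb inside the gene, was nearly as tall, with 3.36, 3.26 and 3.52 against 3.20, 3.50 and 2.96. KO replicate 2 lay within the WT range at both. Region 8 (chr10:128673395-128674949), at the start site of the sulfite oxidase gene Suox, had 1.46, 1.63 and 1.79 against 1.60, 1.56 and 1.61. Near the higher-coordinate end of Ikzf4, region 7 (chr10:128668810-128669169) was low, with 0.82, 0.85 and 0.79 in WT, 0.90 in KO replicate 1 and no peak in the others.

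At Ikzf1, the Ikaros gene, the tallest region was region 8 (chr11:11725489-11726823), 41.2 kb inside the gene, with heights of 2.54, 2.85 and 2.45 in WT and 1.90, 1.94 and 2.22 in KO. Region 14 (chr11:11766080-11766689) had 1.71, 1.78 and 2.1 against 1.10, 1.38 and 1.70. KO libraries lay below WT at both on this scale, which carries the shift given above. Region 2, over the lower-coordinate end (chr11:11684671-11685198), had 1.18, 1.22 and 1.10 in WT, 0.90 and 0.87 in KO replicates 1 and 4, and no peak in KO replicate 2.

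Heights at the 31 shared regions were then compared after centring, as the log2 of the height over the library's median at all 29419 shared regions, with limma fitted on all of them and Benjamini-Hochberg adjustment. None of the 31 passed an adjusted p of 0.05, the lowest being 0.0845. Unadjusted, 7 of the 31 (22.6%) were below 0.05, against 16.5% of all shared regions. All 7 had higher values in KO. Of the 16.5% of all shared regions below 0.05, most were also higher in KO (11.5% of all shared regions). Across the genome 0.323% of shared regions were called lower and 2.1% higher in KO. After quantile normalization, which gives all libraries the same distribution of heights, these shares were 0.0714% and 0.0408%, and the excess of higher calls was not seen. Regions much lower in KO may have no peak there and so are not in this comparison.

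The estimate with the lowest p was at the Zpbp2 start site beside Ikzf3 (region 21). Centred log2 heights were 1.38, 1.40 and 1.54 in WT and 1.58, 2.02 and 1.58 in KO, so every KO library was above every WT library. The difference was 0.29 ± 0.09 (SE; limma adjusted p = 0.0845), and after quantile normalization 0.05. It was 0.15 without KO replicate 2 (limma adjusted p = 0.401) and 0.37 without KO replicate 4 (limma adjusted p = 0.0322). Leaving out any of the other libraries gave limma adjusted p-values of 0.13 to 0.378. At Ikzf4 region 2 the values were 1.06, 0.90 and 1.12 in WT and 1.25, 1.49 and 1.18 in KO, a difference of 0.28 ± 0.10 (SE; limma adjusted p = 0.133). Suox beside Ikzf4 (region 8) had -0.13, -0.10 and 0.15 in WT and 0.25, 0.32 and 0.30 in KO (difference 0.32 ± 0.15, SE; limma adjusted p = 0.277). Inside Ikzf3, region 3 had a difference of 0.26 ± 0.10 and region 4 (chr11:98477098-98477997) of 0.34 ± 0.15 (SE; limma adjusted p = 0.160 and 0.230). In region 3 every KO library was above every WT library. After quantile normalization the groups overlapped there (difference 0.16), and also at region 21. In region 4 the groups overlapped, and the difference was 0.18 without WT replicate 6 and 0.48 without WT replicate 2.

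The largest estimate at Ikzf1 was at region 11 (chr11:11741602-11742181), where centred log2 heights were -0.54, -0.70 and -0.80 in WT and -0.17, -0.42 and -0.26 in KO. That difference was 0.40 ± 0.20 (SE; limma adjusted p = 0.301), with no overlap of the groups. The second Ikzf1 promoter differed by -0.04 (95% interval -0.30 to 0.22) and the tall region 8 by -0.02 (-0.27 to 0.22), so their lower KO heights on the list scale were not seen after centring. At Ikzf2 the estimates ran from -0.07 at region 21 (95% interval -0.39 to 0.26; chr1:69653284-69653934) to 0.23 at region 27 (0.01 to 0.45). For the Ikzf5 promoter the difference was 0.11 (-0.08 to 0.30), and -0.07 after quantile normalization. It was 0.028 without KO replicate 1, 0.071 without WT replicate 2 and 0.21 without KO replicate 4. The largest negative estimates at Ikzf3 and Ikzf1 were -0.12 (-0.55 to 0.32) at region 14 (chr11:98510072-98510514) and -0.09 (-0.42 to 0.23) at region 14.

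**Figure D4:**
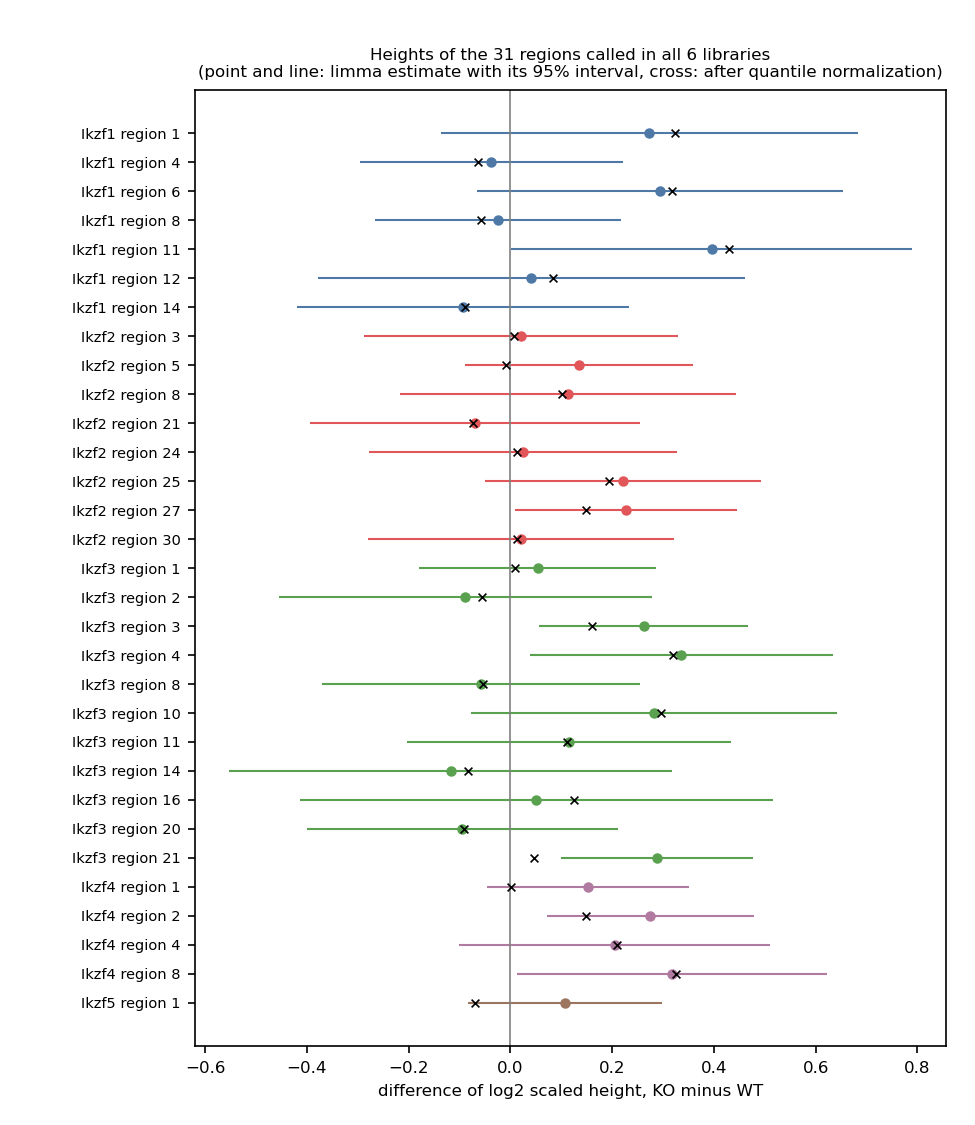
Difference of log2 scaled height, KO minus WT, at the 31 regions called in all 6 libraries (points with their 95% interval from limma, coloured by gene), and the same after quantile normalization (crosses). 23 of the 31 points lie above 0, and at region 21 of Ikzf3 the cross falls from 0.29 to 0.05.

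Of the 31 shared regions 23 (74.2%) had an estimate above 0, against 55.4% of all shared regions, and their median was 0.11 against 0.03. Every KO library was above every WT library at 7 of the 31 (22.6%, against 13.7% of all shared regions), and below at 0 (6.90%). After quantile normalization 5 were above (7.91% of all shared regions) and 0 below (7.76%). Of these 7 regions 3 lay at Ikzf4, 2 at Ikzf3 and 2 at Ikzf1. Averaged over its 4 shared regions, Ikzf4 had a centred log2 height of 0.54 ± 0.06 in WT and 0.78 ± 0.08 in KO (SD, n = 3 each), with every KO library above every WT library (exact permutation p = 0.1, adjusted 0.188 over the 15 tests), as at 17.9% of protein-coding genes with a shared region, while none of the 5 was lower (6.88%). Of those 4 regions 3 hold the start site of another gene (Rps26, Suox and the non-coding RNA gene Gm26876). The other members overlapped between genotypes, with mean differences of 0.12 at Ikzf1, 0.09 at Ikzf2, 0.09 at Ikzf3 and 0.11 at Ikzf5.

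The genes whose centred heights varied over the 6 libraries most like those of a member were found by Euclidean distance among 1159 other protein-coding genes with at least 5 shared regions. Nearest to Ikzf1 were Pkp4 (distance 0.037), Cfap54 (0.050) and Rhoh (0.072), nearest to Ikzf2 were Arhgap25 (0.086), Npas2 (0.088) and Slc4a2 (0.088), and nearest to Ikzf3 were Auh (0.047), Dock10 (0.055) and Crtc3 (0.074). The median distance of all genes was 0.26 to 0.30. Ikzf4 and Ikzf5 had fewer than 5 shared regions.

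Partners of Ikaros family proteins were taken as a list of 25 genes, from the NuRD, Sin3 and CtBP complexes, the Treg factors Foxp3 and Runx1, and Crbn with its ubiquitin ligase, through which drugs such as lenalidomide degrade Ikaros and Aiolos. All 25 had a peak, with 119 to 126 peaks in WT and 90 to 103 in KO libraries. Of their 69 shared regions, 0 were called lower and 4 higher in KO by height (limma, against 0.323% and 2.1% of all), and their median difference was 0.05. The 4 lay at Runx1 (chr16:92824912-92826580, 0.50 ± 0.11 SE, limma adjusted p = 0.0114), Chd3 (0.43 ± 0.09, adjusted p = 0.00916), Rbx1 (0.33 ± 0.09, adjusted p = 0.0360) and Sin3a (0.32 ± 0.09, adjusted p = 0.0344), and after quantile normalization 0 passed. Runx1, a partner of Foxp3, had 19.7 ± 1.53 peaks in WT and 14.7 ± 2.52 in KO (SD, n = 3 each). Of the 25 genes, 6 had fewer peaks in every KO library (15.5% of genes with a peak) and 1, Sin3a, had more (0.388%). Each of the 6 had at least 5 peaks on average in WT, and 39.3% of all such protein-coding genes had fewer peaks in every KO library. Sin3a had 3 peaks in each WT library and 4, 4 and 5 in KO. Its 3 regions were all called in all 6 libraries, so the additional KO peaks lay within shared regions.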

How the data were processed

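Peak lists of 6 Treg ATAC-seq libraries, 3 WT and 3 KO, were grouped and numbered by sample title. Bowtie2 2.3.1, Picard 1.88 and the mm10 build are named in the submitters' processing notes. Per the file headers, the authors called peaks on each library alone with MACS 2.1.1.20160309, without a control library, at a q-value of 0.05. Tags were shifted by 100 bp and extended to 200 bp, 1 tag was kept per position, and the local background window was 10000 bp, per the file headers. The deposited pileup is a signal at the summit, not scaled to depth. Fold enrichment, deposited too, is the ratio of pileup to local background, and its significance is deposited as the −log10 of a p-value and the −log10 of a q-value. The sources used here do not state a Tn5 offset.

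Gene spans and promoters came from RefSeq (GRCm38.p6), and all 5 members and all listed genes were matched. A region counted as called in a library with at least 1 peak inside it, and the tallest such peak gave the height. A deeper library calls weaker sites at a fixed q-value, so the lack of a peak does not show closed chromatin. Peak numbers and covered bases were compared over the 20 assignments of 3 against 3 libraries (exact permutation test, two-sided). Heights were compared by limma with a mean-variance trend. In simulated data with 200 of 29419 regions changed by a fold of 2, 57.5% were recovered and 3.36% of calls were false. Apart from the 200 changed regions, both genotypes were drawn around the same region means. The simulation thus lacked the excess of higher KO calls seen in the data, and its share of false calls need not hold there. Its spread between libraries was set in advance and not estimated from the data, so the share recovered need not hold either. Regions named were those at start sites or, where no start site was in the table, within 1 kb of a gene end, the 3 tallest shared regions, those of 1 genotype, and the largest estimates in each direction. Members and lists were chosen with earlier results of these data known. Alternatives were a −log10 q of at least 3, lists of equal length, 2 kb flanks, 200 bp windows at summits, other scalings, fold enrichment, no trend, leaving out each library, and pairs by number. Replicate numbers 2 and 4 occur in both groups, but nothing in the labels ties them to a shared batch. Software was limma 3.58.1 in R 4.3.3, and SciPy 1.17.1, pandas 2.3.3, NumPy 2.4.6 and Matplotlib 3.10.9 in Python 3.11.15.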

Additional observations from a re-analysis of the deposited data

How the results depend on the processing

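The difference of -14.7 peaks at the 5 genes turned to 2 more in KO in lists of equal length (exact permutation p = 0.5), and Ikzf1 and Ikzf4 turned likewise, to 1.67 and 1 more. Covered length stayed lower in KO under each alternative run, by -6380 bp in lists of equal length, where it was not computed for other genes. With summit windows the difference was -2933 bp. Every peak is then 200 bp long, so that value only restates the difference in peak number. Leaving out 1 library gave differences of -16.8 to -12.8 peaks and -13791 to -10886 bp. Regions called in all WT and no KO libraries numbered 2 with the stricter threshold and 0 in lists of equal length. Their number was 2 with summit windows and 2 to 8 without 1 library. For all regions of the series these counts were not made. With heights scaled to the list median, which moves every region by one constant, 6 shared regions of the family were called lower in KO. The median difference of all shared regions was then -0.32, and the share of them called lower under this scaling was not counted. Without 1 library 0 to 1 regions of the family were called higher, the 1 without KO replicate 4. No other alternative run called a region of the family.

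The replicate block on numbers 2 and 4 gave -14 peaks and -11619 bp (exact permutation p = 0.5 each, the smallest for 2 pairs) and called 0 regions by height, as did the same 4 libraries with the number ignored, a fit chosen after seeing the data. Deviations of same-numbered libraries correlated at -0.02 and -0.05, so the numbers were not taken as pairs. Under the block, small negative estimates turned to 0.027 and 0.028 at regions 4 and 8 of Ikzf1, 0.21 at its region 14, and 0.25 and 0.0087 at regions 14 and 20 of Ikzf3. With fold enrichment they turned to 0.091, 0.091 and 0.086 at the same Ikzf1 regions, 0.058 at region 21 of Ikzf2, and 0.16 and 0.0053 at regions 2 and 14 of Ikzf3. Quantile normalization turned region 5 of Ikzf2 to -0.0084 and region 1 of Ikzf5 to -0.070. Without 1 library the estimates ran from -0.085 to 0.0056 at Ikzf1 region 4, -0.081 to 0.053 at Ikzf1 region 8, -0.23 to 0.10 at Ikzf1 region 14, -0.032 to 0.24 at Ikzf2 region 5, -0.16 to 0.014 at Ikzf2 region 21, -0.0057 to 0.12 at Ikzf3 region 1, -0.34 to 0.17 at Ikzf3 region 14 and -0.18 to 0.0058 at Ikzf3 region 20. The range was 0.15 to 0.37 at Ikzf3 region 21, 0.18 to 0.48 at Ikzf3 region 4, -0.18 to -0.017 at Ikzf3 region 2, 0.10 to 0.33 at Ikzf2 region 25, 0.057 to 0.25 at Ikzf4 region 1 and 0.028 to 0.21 at Ikzf5 region 1. The block gave 0.15 at Ikzf3 region 4. The cause of these turns was not tested. With 3 libraries a group, the 95% intervals of single height estimates at the family were wide, such as -0.55 to 0.32 at Ikzf3 region 14.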
